A study of Citrus reticulata with 36 samples.

Results

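The nucellus and the integument of ovules of the ponkan (Citrus reticulata) cultivar "Egan No.1" (EG) were compared at 32 days after pollination (DAP). The comparison used 6 of the 36 libraries of a study of seed abortion, 3 from each tissue, chosen by their labels. The other libraries came from the same tissues of EG at 18 and 28 DAP and of the cultivar "Huagan No.4" (HG) at 18, 28 and 32 DAP. No group was treated, and both cultivars are ponkans. Tissue was cut by laser capture microdissection, and its RNA was amplified from nanogram amounts before sequencing. Which tree or fruit a region was cut from, and how regions were picked, the labels leave unsaid. The p-values measure the spread between replicate libraries, estimated over all 36 together, and they are too small wherever regions came from 1 tree.

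The nucellus is the maternal tissue that encloses the embryo sac, and in many citrus types its cells can form additional embryos without fertilisation. The integument surrounds it and becomes the seed coat. Both tissues are of the mother plant, and the nucellus lies next to the developing embryo and endosperm. A captured region holds many cells, and fewer cells of a type cannot be told apart from less RNA per cell.

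The deposited tables list 128861 gene identifiers with no gene name, description or sequence, so no function can be given for any of them and no sequence is shown. At most 2 identifiers in each direction are printed. Several identifiers may stand for 1 gene, and close copies can divide reads among them, so a single value is uncertain in that respect.

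The 6 libraries held between 18926755 and 20022299 counts, within the range of 12687779 to 20947644 over all 36. At an equal depth of 18926755 counts, nucellus libraries detected 66651 ± 1911 identifiers and integument libraries 67809 ± 489 (SD, n = 3 each; exact two-sided permutation p = 0.4, where 0.1 is the smallest that 3 against 3 libraries allow). The 10 most abundant identifiers took 14.2% ± 2.0 of the counts in nucellus and 15.7% ± 1.1 in integument (SD, n = 3 each; exact permutation p = 0.3).

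In both tissues replicate 1 stood apart. Spearman correlations between replicates 2 and 3 were 0.980 in nucellus and 0.983 in integument, while those of replicate 1 with either lay at 0.953 and 0.956 in nucellus and at 0.932 and 0.933 in integument. Between the tissues, correlations lay between 0.864 and 0.902. Replicates 2 and 3 still differed beyond counting noise, with a chi-square of 10.7 per degree of freedom in nucellus and 8.41 in integument, and each was kept as a library of its own. The labels do not say whether they share a tree.

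The tissue labels were checked with identifiers that separated the tissues at least 32-fold in HG at 32 DAP, which shares no library with the EG comparison. Of 137 such nucellus identifiers, 132 were higher in EG nucellus and 85 were called there, where 2.33% of all identifiers tested were. Of 376 such integument identifiers, 366 were higher in EG integument and 278 were called, against 4.54% of all tested. In the EG integument libraries the nucellus identifiers stood at a median of 2.44%, 1.52% and 0.537% of their mean EG nucellus level in replicates 1, 2 and 3. In the EG nucellus libraries the integument identifiers stood at 2.20%, 0.786% and 0.655% of their integument level. In both tissues replicate 1 therefore carried the highest level of the other tissue's identifiers, and its part in the tissue comparison was not tested.

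The 2 tissues differed at 3940 of the 57344 identifiers tested (6.87%), by edgeR's quasi-likelihood test at an adjusted p under 0.05, which is what "called" means throughout. Of these, 1336 were higher in nucellus (2.33% of those tested) and 2604 higher in integument (4.54%), so 66.1% of the calls lay on the integument side. The median log2 fold change of all identifiers tested was 0.02, nucellus minus integument, and 51.1% of them were nominally higher in nucellus. The 3 nucellus libraries lay wholly above the 3 integument libraries for 1331 of the 1336 and wholly below them for 2596 of the 2604. Over all identifiers tested, such a separation was found for 15% with nucellus higher and 16.4% with integument higher.

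With same-numbered libraries paired as a replicate block, 2722 identifiers were called higher in nucellus and 4015 higher in integument. The spread of the main test came from all 36 libraries. In a model of the 6 compared libraries alone, without the block, the counts were 2409 and 4303. The counts also rested on single libraries. Without integument replicate 2 or 3, the nucellus side fell to 745 or 750, and without nucellus replicate 2 or 3 the integument side fell to 1528 or 1540. Without replicate 1 of both tissues, which leaves 2 libraries a side, 707 and 1310 were called, and with replicates 2 and 3 summed to 1 sample in each tissue, 541 and 1266. The integument side held the larger count under all of these settings, with 59.6% of the calls under the replicate block and 64.9% without replicate 1.

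**Figure D1:**
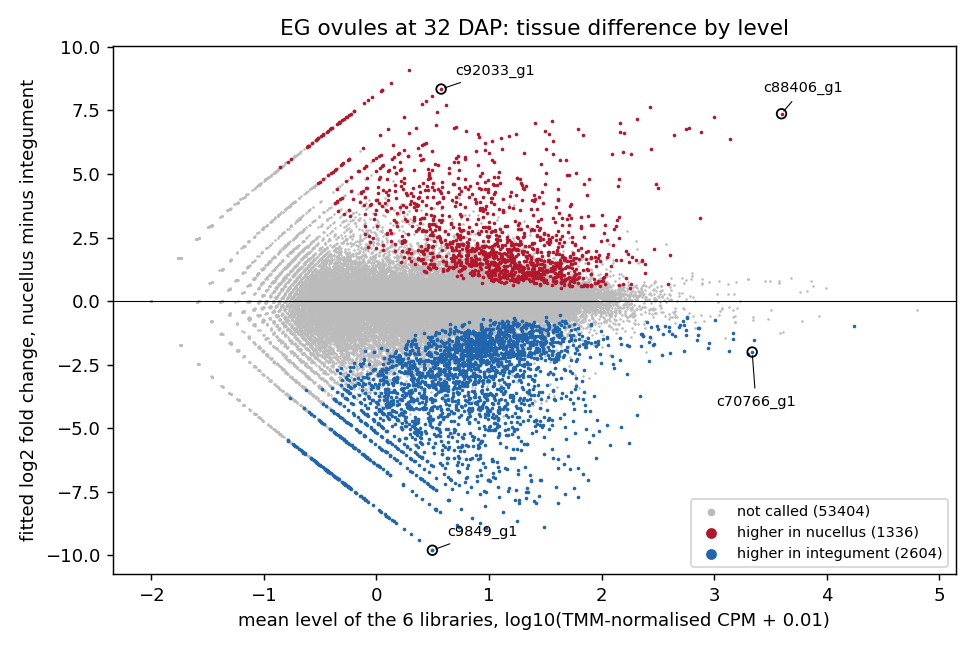
Fitted log2 fold change, nucellus minus integument, of each of the 57344 identifiers tested (vertical axis) against its mean level in the 6 EG libraries of 32 DAP, as log10(TMM-normalised CPM + 0.01) (horizontal axis). Red points are the 1336 called higher in nucellus, blue points the 2604 called higher in integument, grey points were not called, and circles mark the 4 identifiers named in the text; at the highest levels the red points reach far from 0, while most blue points lie closer to it.

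Over all calls, the median difference was larger on the integument side. The median log2 fold change of the calls was 2.04 towards nucellus and 2.91 towards integument (2.90 with identifiers at 0 counts in nucellus set to a bound of 3 counts over that group). At least a 16-fold difference was found for 273 of the nucellus calls (20.4%) and for 781 of the integument calls (30.0%). At least 64-fold, there were 48 and 194. In the smallest class, under 2-fold, the order was the other way, with 146 nucellus and 79 integument calls. Tested against a 2-fold difference instead of against 0, 462 identifiers were higher in nucellus (0.806% of those tested) and 1253 higher in integument (2.19%). The replicate block raised the first of these counts to 707. Without integument replicate 2 or 3 it was 267 or 282, and without nucellus replicate 2 or 3 the second was 736 or 716; without replicate 1 of both tissues the counts were 286 and 683.

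**Figure D2:**
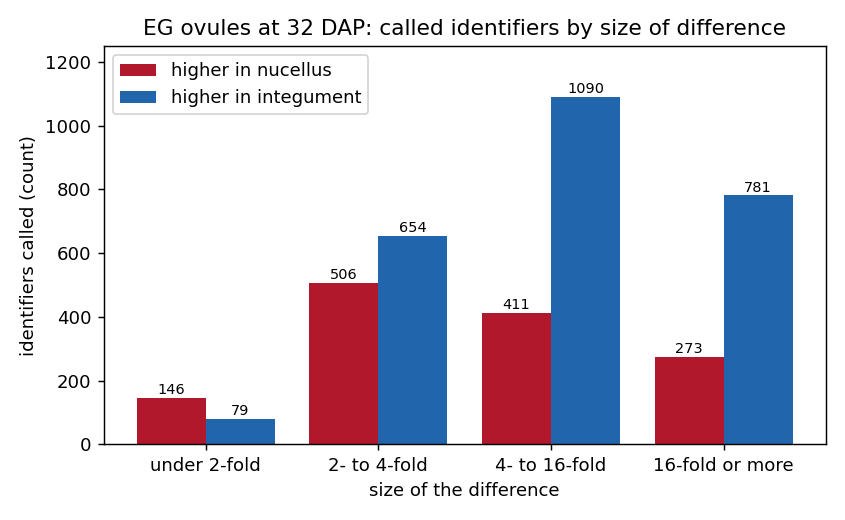
Number of identifiers called (vertical axis, from 0) in 4 classes of the size of the difference (horizontal axis), red for those higher in nucellus and blue for those higher in integument, with each count printed above its bar. Nucellus calls exceed integument calls in the class under 2-fold alone, at 146 against 79, and integument calls lead in the others, up to 1090 against 411 between 4- and 16-fold.

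Few of the called identifiers had counts in 1 tissue alone. Of the nucellus calls, 41 had no count in the 3 integument libraries, and a further 56 had between 1 and 3 counts there in all. Of the integument calls, 100 had no count in the 3 nucellus libraries and 183 had between 1 and 3. Where at least 10 counts were required in each library of the tissue that held them, 25 identifiers were at 0 in integument and 48 at 0 in nucellus. All of these were of low level, since the highest mean was 3.84 CPM for a nucellus identifier at 0 in integument and 6.26 CPM for an integument identifier at 0 in nucellus. CPM are counts scaled to a common library size. A count of 0 over the 3 nucellus libraries allows a level of up to 0.0477 CPM, and over the 3 integument libraries up to 0.0482 CPM.

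The identifier c92033_g1 had the largest fitted rise in nucellus under the naming rule. Its level was 3.69, 11.2 and 7.59 CPM in nucellus replicates 1, 2 and 3, and 0, 0.0474 and 0 CPM in integument. All 3 nucellus libraries were thus well above the integument libraries, where a single count was found against 462 in nucellus. The ratio was 457, with an exact 95% counting interval of 81.7 to 18099 (edgeR adjusted p = 2.53e-05). Nucellus replicate 1 was the lowest of the 3.

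The same identifier was found in nucellus at each stage of both cultivars. In EG nucellus it averaged 4.22 ± 1.54 CPM at 18 DAP, 1.97 ± 0.79 CPM at 28 DAP and 7.48 ± 3.74 CPM at 32 DAP (SD, n = 3 each). In HG nucellus the means were 5.23 ± 4.09, 7.08 ± 1.20 and 3.30 ± 2.51 CPM at 18, 28 and 32 DAP. EG at 32 DAP had the highest mean, and its libraries overlapped those of EG at 18 DAP and of HG at each stage. They lay above those of EG at 28 DAP, at 3.69 to 11.2 CPM against 1.16 to 2.75 CPM. This step within nucellus was not tested. In integument no count was found in EG at 28 DAP or in HG at 28 and 32 DAP, and 2 and 3 counts were found in EG and HG at 18 DAP.

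The identifier c88406_g1 was the most abundant of those at least 2-fold higher in nucellus. It stood at 6368, 8024 and 9278 CPM in nucellus and at 84.4, 38.4 and 20.4 CPM in integument, in replicates 1, 2 and 3. The groups did not overlap, and replicate 1 was the lowest in nucellus and the highest in integument. The log2 fold change was 7.37 (SE 1.10, edgeR adjusted p = 5.60e-05). Its size rested in part on single integument libraries, at 8.07 without replicate 1 and 7.01 without replicate 3. Without replicate 1 of both tissues it was 8.22, and with replicates 2 and 3 summed in each tissue it was 7.05. Per length it ranked as number 5 of the tested identifiers in nucellus by mean FPKM, at 6721 ± 932 FPKM against 39.8 ± 26.8 FPKM in integument (SD, n = 3 each).

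Over the stages of EG, c88406_g1 averaged 6271 ± 1413, 5329 ± 2317 and 7890 ± 1460 CPM in nucellus at 18, 28 and 32 DAP, and between 17.7 and 47.7 CPM in integument. In HG nucellus at 32 DAP its 3 libraries ran from 544 to 8812 CPM, a wider spread than in any other nucellus group for this identifier. The tissue difference at 32 DAP did not differ detectably between EG and HG (log2 difference of the fold changes 0.70, SE 1.19, edgeR adjusted p = 1.00).

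On the integument side the largest fitted difference was of c9849_g1, at 2.34, 8.30 and 8.15 CPM in integument replicates 1, 2 and 3 and at 0 in each nucellus library. Integument replicate 1 was the lowest and still clear of nucellus. With 394 counts against 0, it was 133-fold higher in integument with nucellus at a floor of 3 counts in all (edgeR adjusted p = 6.94e-06). That fold takes the integument counts as exact. The lower end of the exact 95% counting interval of the ratio of counts was 107. In EG nucellus its level was 0.218 ± 0.101 CPM at 18 DAP, from 11 counts, and 0.0362 ± 0.0627 CPM at 28 DAP, from 2 counts. The integument level was 3.64 ± 1.58, 5.71 ± 4.44 and 6.26 ± 3.40 CPM at 18, 28 and 32 DAP (SD, n = 3 each), with overlapping spreads. The tissue difference was larger at 32 than at 18 DAP at an unadjusted p = 0.00204, but the adjusted p of edgeR was 1.00. Against 28 DAP the unadjusted p of edgeR was 0.132. This identifier was chosen for its large difference at 32 DAP, which favours a larger value there, so no change between stages is shown.

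The most abundant identifier at least 2-fold higher in integument was c70766_g1. It stood at 2865, 3792 and 3802 CPM in integument and at 759, 938 and 915 CPM in nucellus, in replicates 1, 2 and 3. Replicate 1 was the lowest in both tissues, and the groups did not overlap. The log2 fold change was -2.00 (SE 0.27, edgeR adjusted p = 9.73e-06). Unlike c88406_g1 it was abundant in both tissues, at 1009 ± 174 FPKM in integument and 255 ± 20.3 FPKM in nucellus (SD, n = 3 each). Its log2 fold change in EG was -1.31 at 18 DAP and -1.59 at 28 DAP. The step from 18 to 32 DAP was -0.69 (SE 0.37, unadjusted p = 0.0732, edgeR adjusted p = 1.00), so the tissue difference was not shown to differ between these stages. Integument means in EG were 1827 ± 152, 2651 ± 1220 and 3486 ± 538 CPM at 18, 28 and 32 DAP, and nucellus means 735 ± 159, 880.0 ± 147 and 871 ± 97.2 CPM.

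**Figure D3:**
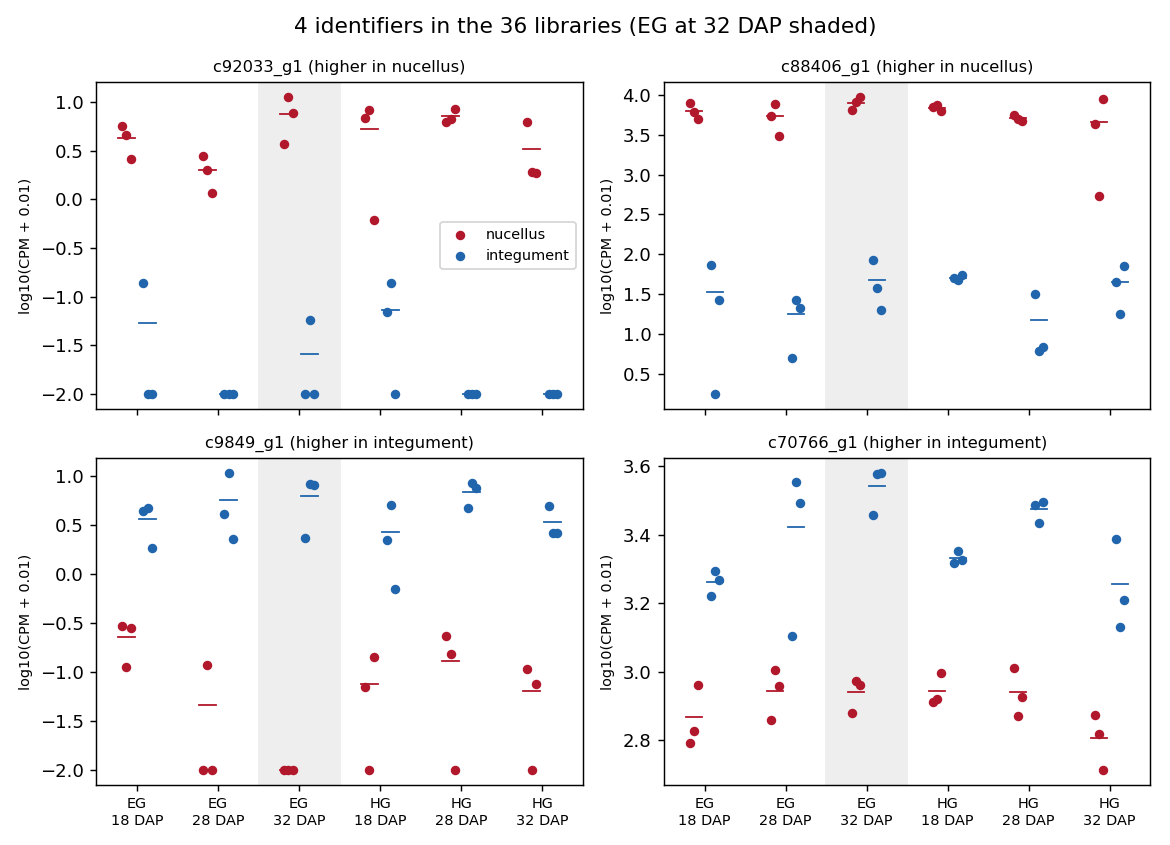
Level of the 4 named identifiers in each of the 36 libraries, as log10(TMM-normalised CPM + 0.01) (vertical axes, which do not start at 0), by cultivar and stage (horizontal axis), with red points for nucellus, blue points for integument, short lines at the group means and EG at 32 DAP shaded. In the shaded group the tissues do not overlap for any of the 4, and c9849_g1 is at 0 counts in all 3 nucellus libraries.

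The 2 tissues differed in how abundance and size of difference went together. Levels were compared between identifiers per length, as the mean of the authors' FPKM over the 6 libraries. Below 1 FPKM, 0.996% of 17462 identifiers were called higher in nucellus and 2.94% higher in integument, with median log2 fold changes of 4.43 and -4.28. From 20 to 100 FPKM the shares were 4.79% and 5.06% of 4305, and 51.4% of the calls lay on the integument side, the most even of the classes. Above 100 FPKM, 33 of 401 were called higher in nucellus (8.23%) and 56 higher in integument (14.0%).

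Among these 401 most abundant identifiers, the nucellus calls were the more extreme. Their median log2 fold change was 5.77 towards nucellus (quartiles 1.72 and 6.66), and 20 of the 33 were at least 16-fold higher. For the 56 integument calls the median was -1.61 (quartiles -3.79 and -1.22), and 13 were at least 16-fold higher. The median of all 401 was -0.04. The 33 stood at a median of 294 FPKM in nucellus and 19.4 FPKM in integument, whereas the 56 stood at 272 FPKM in integument and 90.1 FPKM in nucellus. The nucellus side thus had the larger median in this class and, by a narrow margin, below 1 FPKM, while the integument side had the larger one in the 3 classes between and over all calls. The class medians are of fitted values, without the bound set for identifiers with no count in 1 tissue. The narrow margin below 1 FPKM is therefore uncertain. The difference between the sides was described and not tested.

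The counts per library restated these differences in the same 6 libraries. The 33 identifiers took 3.06%, 2.78% and 2.78% of the counts in nucellus replicates 1, 2 and 3, and 0.229%, 0.173% and 0.165% in integument. The 56 took 6.48%, 6.56% and 6.67% in integument and 2.85%, 2.77% and 2.54% in nucellus. The calls fixed the direction of these shares, but the libraries of each tissue lay close to each other. In the groups that did not choose them, all 33 were higher in nucellus in each of the other 5 combinations of cultivar and stage, and all 56 were higher in integument. The median of the 33 was 5.20 and 5.29 in EG at 18 and 28 DAP, 5.28 and 5.09 in HG at 18 and 28 DAP, and 4.20 in HG at 32 DAP. For the 56 these medians were -1.27, -1.27, -1.01, -1.24 and -0.87. At 32 DAP in HG, 29 of the 33 and 22 of the 56 were called, where 1.80% and 3.68% of all identifiers tested were called higher in nucellus and in integument.

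A single integument call held much of that side's counts. It averaged 2.42% of the counts of an integument library and had a log2 fold change of -0.96, just short of 2-fold, so it fell outside the naming rule. Over all calls, the 10 most abundant held 29.8% of the counts of the nucellus side in nucellus and 38.0% of those of the integument side in integument. It took 62 identifiers to reach 50% of the nucellus side and 29 to reach 50% of the integument side. The median length implied by the ratio of counts to FPKM was 2035 bases for nucellus calls, 1902 for integument calls and 1986 for all identifiers tested.

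As a share of all counts, the nucellus calls took 7.84%, 6.92% and 6.75% in nucellus replicates 1, 2 and 3 and 1.59%, 1.44% and 1.39% in integument. The integument calls took 12.2%, 12.1% and 11.9% in integument and 4.24%, 4.02% and 3.71% in nucellus. A set of 21 identifiers that earlier results found to vary together over the libraries took between 3.51% and 11.1% of the counts of these libraries, with the highest share in nucellus replicate 3. None of the 21 was called in either direction, where 6.87% of all identifiers tested were, and so small a set gives no difference from that share.

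**Figure D4:**
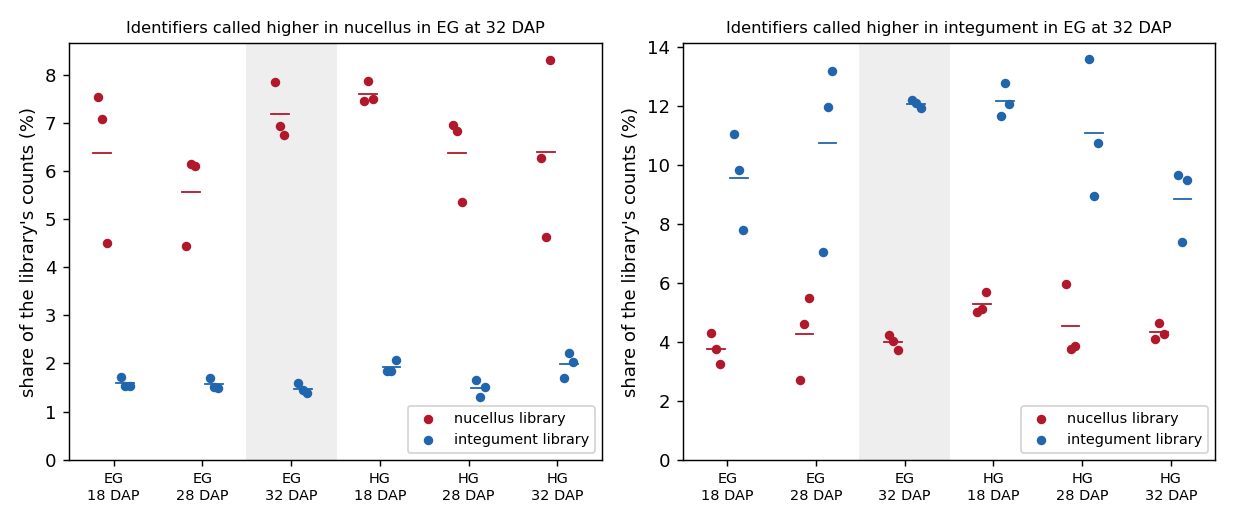
Share of each library's counts in % (vertical axes, from 0) held by the 1336 identifiers called higher in nucellus (left panel) and the 2604 called higher in integument (right panel) in EG at 32 DAP, for the 36 libraries by cultivar and stage (horizontal axis); red points are nucellus libraries, blue points integument libraries, short lines group means, and EG at 32 DAP is shaded. The tissues stay apart in each combination, and the 3 integument libraries of EG at 32 DAP lie between 11.9% and 12.2% in the right panel.

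For part of the identifiers a difference of 2-fold or more lay outside the measured interval. The approximate 95% interval of the log2 fold change lay wholly within 2-fold in either direction for 14512 identifiers (25.3%), 12 of which were called. For 38904 (67.8%) neither a difference nor a limit of 2-fold was reached, so no statement on them is possible at this depth and spread. The median within-tissue SD on the log2 CPM scale was 0.24 in nucellus and 0.26 in integument, over 28283 identifiers with a mean of at least 5 CPM.

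The calls of EG at 32 DAP were then read in the 5 other combinations of cultivar and stage, which share no library with it. Of the 1336 nucellus calls, 1317 were higher in nucellus in EG at 18 DAP and 1321 at 28 DAP, and 741 and 814 were called there. Of the 2604 integument calls, 2599 and 2597 were higher in integument at those stages, and 1661 and 1910 were called. Those 2 stages had 1365 and 1969 nucellus calls (2.38% and 3.43% of those tested) and 2600 and 3219 integument calls (4.53% and 5.61%). The shared nucellus calls were thus 55.5% of the list at 32 DAP and 54.3% of that at 18 DAP, and 60.9% and 41.3% for 28 DAP. The shared integument calls were 63.8% and 63.9% for 18 DAP and 73.3% and 59.3% for 28 DAP. No call of EG at 32 DAP had the opposite call in EG at 18 or 28 DAP.

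In HG, 727 of the nucellus calls were called at 18 DAP and 910 at 28 DAP, where 3.06% and 2.73% of all identifiers tested were. Of the integument calls, 1672 and 1883 were called at those stages, where 5.51% and 4.51% of those tested were. One nucellus call had the opposite call in HG at 18 DAP, and no integument call had one at either stage.

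At all 3 stages of EG, 627 identifiers were called higher in nucellus and 1473 higher in integument, which is 46.9% and 56.6% of the calls at 32 DAP. In all 5 other combinations, 388 nucellus calls (29.0%) and 957 integument calls (36.8%) were called again. These were the larger differences, with median log2 fold changes of 2.97 and -3.82 at 32 DAP. In none of the 5 were 203 nucellus calls (15.2%) and 253 integument calls (9.72%) called. Even so, 142 of the 203 and 212 of the 253 had the same direction in all 5. A nucellus direction in all 5 was found for 91.6% of the nucellus calls, against 19.3% of all identifiers tested, and an integument direction in all 5 for 96.9% of the integument calls, against 20.2%.

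Among the stages of EG, 408 nucellus and 506 integument calls were made at 32 DAP alone. Their medians were 1.90 and -2.17 at 32 DAP, and smaller in the same direction at 18 DAP (0.79 and -1.21) and at 28 DAP (0.88 and -1.14). A value chosen for being called at 1 stage is likely to be lower in other libraries, so this step is no sign of a change. The test of the change itself called none of them. When the tissue difference at 32 DAP was set against that at 18 DAP, 0 identifiers passed in edgeR (0% of those tested). An unadjusted p under 0.05 was found for 1246 (2.17%), fewer than that threshold gives with no change. The replicate block in edgeR gave 2 calls, DESeq2 8, and voom with quality weights 23. By pseudocount and filter, limma on FPKM gave between 2 and 5. Set against 28 DAP, 0 passed in edgeR and 1850 (3.23%) had an unadjusted p under 0.05, again fewer than with no change. There voom gave 0 calls, DESeq2 gave 1, and limma on FPKM gave 0 with a filter and 2 without. The standard error of such a difference of differences had a median of 0.70, against 0.50 for the tissue difference itself. The approximate 95% interval of the difference of differences lay within 2-fold for 12.8% of the identifiers against 18 DAP and 10.9% against 28 DAP. A gain or loss of tissue difference between the stages was therefore not detectable for most identifiers.

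**Figure D5:**
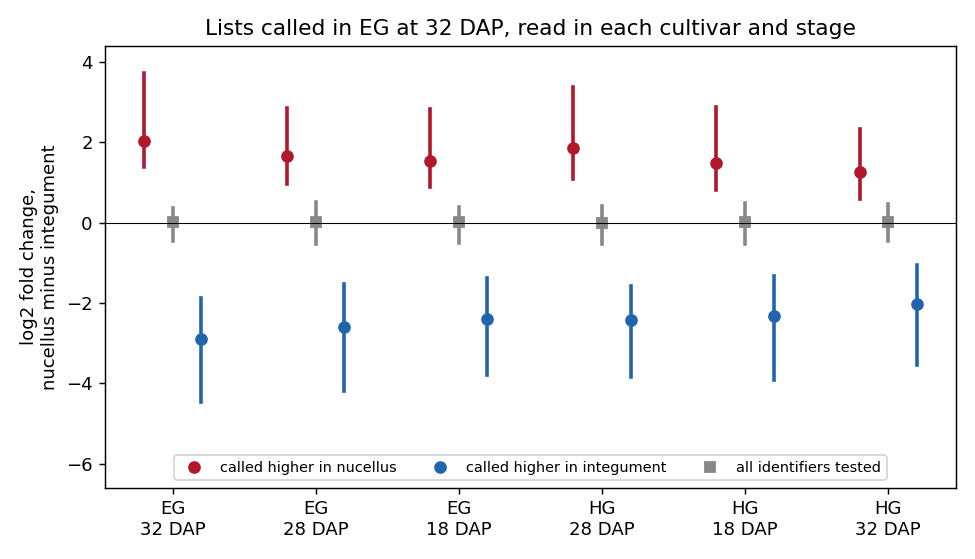
Median (points) and quartiles (lines) of the log2 fold change, nucellus minus integument (vertical axis), in each combination of cultivar and stage (horizontal axis), red for the 1336 identifiers called higher in nucellus in EG at 32 DAP, blue for the 2604 called higher in integument there and grey squares for all 57344 tested. Both lists keep their side in each combination, and of the 5 that did not choose them they lie closest to 0 in HG at 32 DAP, at 1.25 and -2.03.

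Against HG at the same stage, the EG calls were read least clearly. In HG at 32 DAP the medians were 1.25 for the nucellus calls and -2.03 for the integument calls. Of the 1336, 1268 were higher in HG nucellus and 555 were called, and of the 2604, 2552 were higher in HG integument and 1319 were called. One nucellus call of EG was called in the opposite direction in HG. HG at 32 DAP had 1031 nucellus calls (1.80%) and 2113 integument calls (3.68%), so the shared ones were 53.8% and 62.4% of its own lists and 41.5% and 50.7% of those of EG. Read the other way, the HG calls had medians of 1.52 and -2.36 in EG at 32 DAP, against 2.00 and -2.93 in HG itself. Each list is favoured in the libraries that chose it, so a lower median in the other cultivar is a description and no test.

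The difference between the cultivars was not established for single identifiers. For EG minus HG at 32 DAP, 0 identifiers (0%) passed in edgeR, where the smallest adjusted p was 0.0553 and 2731 identifiers (4.76%) had an unadjusted p under 0.05. The replicate block in edgeR gave 21 calls, DESeq2 41 and voom 47. Limma on FPKM gave 0 calls with a pseudocount of 0.1, 3 with a pseudocount of 1 and 14 without a filter. Leaving out 1 library gave 0 to 5 calls, with 5 without HG integument replicate 1, 3 without replicate 1 of EG nucellus at 28 DAP, 2 without HG nucellus replicate 1 and 1 without EG integument replicate 1. Within-group spreads were wider in HG at 32 DAP, with a median SD of 0.38 in nucellus and 0.39 in integument against 0.24 and 0.26 in EG, over 28770 identifiers with a mean of at least 5 CPM over all libraries. The part of that spread in the cultivar comparison was not tested.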

How the data were processed

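Laser-captured nucellus and integument were sequenced from ovules of 2 ponkan cultivars at 3 stages, with 3 libraries for each of 12 groups. The authors deposited whole-number counts per gene identifier and FPKM values rounded to 2 decimals. The submitters' processing notes name cutadapt, Bowtie2, RSEM and DESeq. Their roles and versions, and the reference the reads were mapped to, are not given in the sources used. Both tables number the stages 1 to 3, read here as 18, 28 and 32 DAP in order of time.

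Tissues were compared on the deposited counts with the quasi-likelihood test of edgeR 4.0.16 (limma 3.58.1, R 4.3.3), after TMM normalisation. The filter filterByExpr, which asked for 10 counts and 15 in total, kept 57344 identifiers. A single model with 1 mean per group covered all 36 libraries (24 residual degrees of freedom, common biological coefficient of variation 0.439). P-values were adjusted by the Benjamini-Hochberg method over all identifiers tested, with a threshold of 0.05. Differences past 2-fold were tested with glmTreat. Each standard error is the fold change divided by the square root of F. The procedure was tested on simulated data. DESeq2 1.42.0, voom with quality weights and limma on the deposited FPKM were alternatives, with a pseudocount of 0.1 or 1 and a filter of 0.5 FPKM in 3 libraries.

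The 4 printed identifiers followed a fixed rule: in each direction the largest fold with at least 5 CPM and the highest CPM among those past 2-fold, all called and without overlap between the tissues. The comparison, its lists and its tests were chosen with earlier results of these data known. Gene lists and tissue markers could not be matched, because the files pair the identifiers with no names.

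Same-numbered nucellus and integument libraries deviated together from their group means. The correlations were 0.403, 0.193 and 0.199 for numbers 1, 2 and 3, each over the threshold of 0.1. The main test had no replicate block, and pairing the libraries by number was an alternative to it. No label states this pairing; it comes from the data alone. Replicates 2 and 3 were barely told apart by it. Nucellus 3 with integument 2 gave 0.171 and nucellus 2 with integument 3 gave 0.157, also over the threshold. Pairs of replicate 1 with another number lay between -0.296 and -0.241. Deviations within a tissue cancel out over its replicates, so a replicate 1 apart in both tissues raises all correlations among replicates 2 and 3. The threshold therefore cannot decide on a pairing of numbers 2 and 3. Count intervals and floors hold counting error alone, because reads amplified with no molecular identifier do not each stand for a separate molecule.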

Additional observations from a re-analysis of the deposited data

How the results depend on the processing

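The direction of all 4 named identifiers was kept, and each stayed called, under every alternative in which it was tested (20 or 21 each). They were picked from the same libraries as clear calls without overlap, so this says little about the other calls. Counts of calls moved by over 1.5 times under 9 of 22 settings on the nucellus side and 10 of 22 on the integument side. For nucellus and integument calls in turn, the counts were 2722 and 4015 with the replicate block in all libraries, 5009 and 6824 with it in the compared libraries alone, 2409 and 4303 without the block in those alone, 541 and 1266 with replicates 2 and 3 summed, 687 and 1523 at an adjusted p under 0.01, and 6651 and 7904 with voom and quality weights. With a mean of at least 5 CPM the integument count was 1669. Libraries left out gave 707 to 1658 and 1310 to 3051. The highest values leave out replicate 1 of EG nucellus at 28 DAP, which is not a compared library but shares the fitted spread. The lowest values leave out 2 libraries, replicate 1 of both tissues, an alternative chosen after the data were seen; with 1 library left out, those past 1.5 times were 745 and 750 on the nucellus side (without integument replicate 2 or 3) and 1528 and 1540 on the integument side (without nucellus replicate 2 or 3). Past 2-fold by test, the counts were 707 on the nucellus side with the block in all libraries, and then for both sides 1201 and 2677 with it in the compared libraries alone, 761 and 1989 without it there, 217 and 620 with replicates summed, 274 and 703 with at least 5 CPM, 297 and 771 with limma on log2(FPKM + 0.1), 173 and 382 with a pseudocount of 1, and 247 and 664 without a filter. Libraries left out gave 267 to 531 and 683 to 1402, with 282 (integument replicate 3), 286 (replicate 1 of both tissues), 736 and 716 (nucellus replicate 2 or 3) among them. Here too the highest values, 531 and 1402, leave out replicate 1 of EG nucellus at 28 DAP. The share of calls on the integument side ran from 54.3% (voom) to 73.3% (without integument replicate 2).

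For the difference from 18 DAP, counts other than 0 were 2 with the replicate block, 8 with DESeq2, 23 with voom, 2, 5 and 4 with limma on FPKM (pseudocount 0.1, pseudocount 1, no filter), and 0 to 1 with a library left out. For 28 DAP they were 1 with DESeq2 and 2 with limma on FPKM without a filter, and 0 with a library left out. For HG they were 5 without a count filter, 21 with the replicate block, 41 with DESeq2, 47 with voom, 3 and 14 with limma on FPKM (pseudocount 1, no filter), and 0 to 5 with a library left out. The block changed no call of a named identifier. The cause of these moves was not tested. Precision was lowest for low identifiers, with a median standard error of 0.92 below 1 FPKM against 0.34 from 5 to 20 FPKM; the part of depth in this was not tested.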

Other observations

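The combination whose tissue difference was most like that of EG at 32 DAP was HG at 28 DAP, an earlier stage of the other cultivar; this was noticed after the values were seen. Over the 57344 identifiers tested, the Spearman correlation of the log2 fold changes was 0.636 with HG at 28 DAP, 0.607 with EG at 18 DAP, 0.560 with EG at 28 DAP, 0.520 with HG at 18 DAP and 0.468 with HG at 32 DAP. These are correlations across identifiers, which are not independent replicates. The order was the same over 28770 identifiers with a mean of at least 5 CPM, at 0.766, 0.723, 0.650, 0.636 and 0.553. Of the 1336 nucellus calls of EG at 32 DAP, 1331 had the same direction in HG at 28 DAP and 910 were called, the most of the 5 combinations. Of the 2604 integument calls 2596 had the same direction and 1883 were called, where EG at 28 DAP had 1910.

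With the lists of HG at 28 DAP, read on the same fold changes, EG at 32 DAP had the highest median on the nucellus side. On the integument side it was level with EG at 28 DAP. The 1564 nucellus calls of HG at 28 DAP had a median log2 fold change of 1.66 in EG at 32 DAP, while EG gave 1.54 at 18 DAP and 1.47 at 28 DAP, and HG gave 1.46 at 18 DAP and 1.15 at 32 DAP. For its 2589 integument calls the medians were -2.52, -2.40, -2.52, -2.27 and -2.00 in the same order. The difference of the 2 tissue differences had 739 identifiers (1.29%) at an unadjusted p under 0.05, the fewest of the 5, and edgeR called 0. Within-group spread was also lowest in HG at 28 DAP among the 5, with a median SD of 0.31 in nucellus and 0.30 in integument, and it was 0.56 in EG nucellus at 28 DAP. The part of spread in this order was not tested.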
